A study of Homo sapiens with 4 samples.

Results

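The mucin genes MUC1, MUC2, MUC4, MUC5AC, MUC5B, MUC6, MUC13, MUC16, MUC17 and MUC20 were followed in OE33 cells after knockdown of ARID1A. Every probe set that the array's annotation pairs with 1 of these 10 genes alone was taken. This gave 29 of 49293 probe sets and 9 of the 10 genes, among 18132 genes measured. No probe set was paired with MUC5AC, which is not analysed here. OE33 cells are a human line established from oesophageal adenocarcinoma. The first group was transfected with an siRNA pool against ARID1A (ON-TARGETplus SMARTpool ARID1A, 50 nM), and the second, called mock here, with a non-targeting siRNA pool (50 nM). Both were grown in RPMI with 15% foetal bovine serum, given Lipofectamine 24 hours after plating and harvested 48 hours after transfection, and each was measured on 2 Affymetrix PrimeView arrays, described by the series as biological replicates. ARID1A is part of the SWI/SNF complexes, which remodel chromatin, and the series asked which genes lie downstream of it. The model is a transient knockdown by 1 pool in 1 line, so an action of the siRNAs on other targets and the loss of ARID1A cannot be told apart.

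Mucins are large glycoproteins with long repeats rich in serine and threonine, which carry dense chains of O-linked sugars. The gel-forming mucins, here MUC2, MUC5AC, MUC5B and MUC6, are secreted, join into networks and make the mucus of the gut, stomach and airway. The membrane mucins, here MUC1, MUC4, MUC13, MUC16, MUC17 and MUC20, stay on the apical surface of epithelial cells, and several of them signal through a cytoplasmic tail or bind receptor kinases. In oesophageal columnar metaplasia and adenocarcinoma, mucins of stomach and intestine are used as markers of differentiation.

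ARID1A had a log2 level of 7.53 and 7.53 in knockdown cells, against 9.28 and 9.33 in mock cells, at its brightest probe set, 11719858_a_at, which left 29.2% of the mock level (limma adjusted p = 0.0218). Of its 6 probe sets 4 passed, all lower, and the others had changes of -0.36 and 0.11. Array medians lay between 5.89 and 5.93. As a scale for dim signal, the 359 probe sets of olfactory receptor genes were used, since these genes are not expected in epithelium, and 95% of them had a mean at or below 5.67, called the dim limit below. Signals of different probe sets do not rank amounts of mRNA, so the limit only marks probe sets whose signal cannot be told from that of such genes. A large change can still show below it: ARID1A 11755436_x_at, with a mean of 4.65, passed with a log2 change of -1.61. Of the columnar epithelial markers 8 of 10 were above the limit, with means of at least 9.06, while KRT20 and VIL1 were below it. Of the squamous markers 7 of 8 were above it, among them KRT4 (5.98), KRT5 (5.87) and CRNN (5.74) only just. Of the goblet cell markers 4 of 10 were above it, of the gastric surface mucous markers 0 of 7, of fibroblast markers 0 of 8, of leukocyte markers 1 of 8 and of endothelial markers 3 of 6. The mean level of the gastric markers was 3.85 and 3.84 in knockdown cells, against 3.89 and 3.91 in mock cells, and that of the goblet markers 5.32 and 5.23 in knockdown cells and 5.27 and 5.44 in mock cells. Squamous markers averaged 6.62 and 6.59 in knockdown cells, against 6.41 and 6.46 in mock cells, and endothelial markers 5.17 and 5.13 in knockdown cells and 5.30 and 5.35 in mock cells. For the actin control, the 3′ signal was above the 5′ signal by 1.21 and 1.10 log2 units in knockdown, against 1.04 and 0.995 in mock cells. Columnar markers averaged 11.07 and 11.08 in knockdown and 11.10 and 11.10 in mock cells, and leukocyte markers 4.59 and 4.57 in knockdown and 4.63 and 4.65 in mock cells. The conditions did not overlap in the actin measure or in the columnar, squamous, gastric, leukocyte and endothelial means, while the goblet and fibroblast means overlapped. Among single probe sets of the whole array, knockdown lay below mock without overlap for 22.5% and above it for 24.2%. The columnar mean was lower in knockdown, yet 7 of its 10 markers had positive changes and 3 negative, with a median of 0.03. The part of the marker and actin values in the results below was not tested.

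MUC4 was the mucin with the largest difference, 1.60-fold lower in the knockdown cells at its bright probe set, and this difference missed the threshold of the test over the whole array (limma, adjusted p = 0.0643). The MUC20 probe sets ending in _a_at were also lower, by 1.31-fold and 1.44-fold, without passing. Those of MUC20 ending in _s_at, the brightest among them, were not lower, with log2 changes of 0.18 and 0.00095. MUC1, the gel-forming mucins and the other membrane mucins differed by at most 0.26 log2 units in either direction. Of the 29 mucin probe sets 0 passed at an adjusted p under 0.05 in limma, where 0.316% of all probe sets passed (0.166% lower and 0.15% higher). At an unadjusted p under 0.05 in limma, 3 were lower (7.07% of all probe sets) and 1 was higher (9.1% of all probe sets). Both knockdown arrays lay below both mock arrays for 6 mucin probe sets and above them for 5, and over all probe sets these shares were 22.5% and 24.2%. Neither count stood above the share over the whole array.

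**Figure D1:**
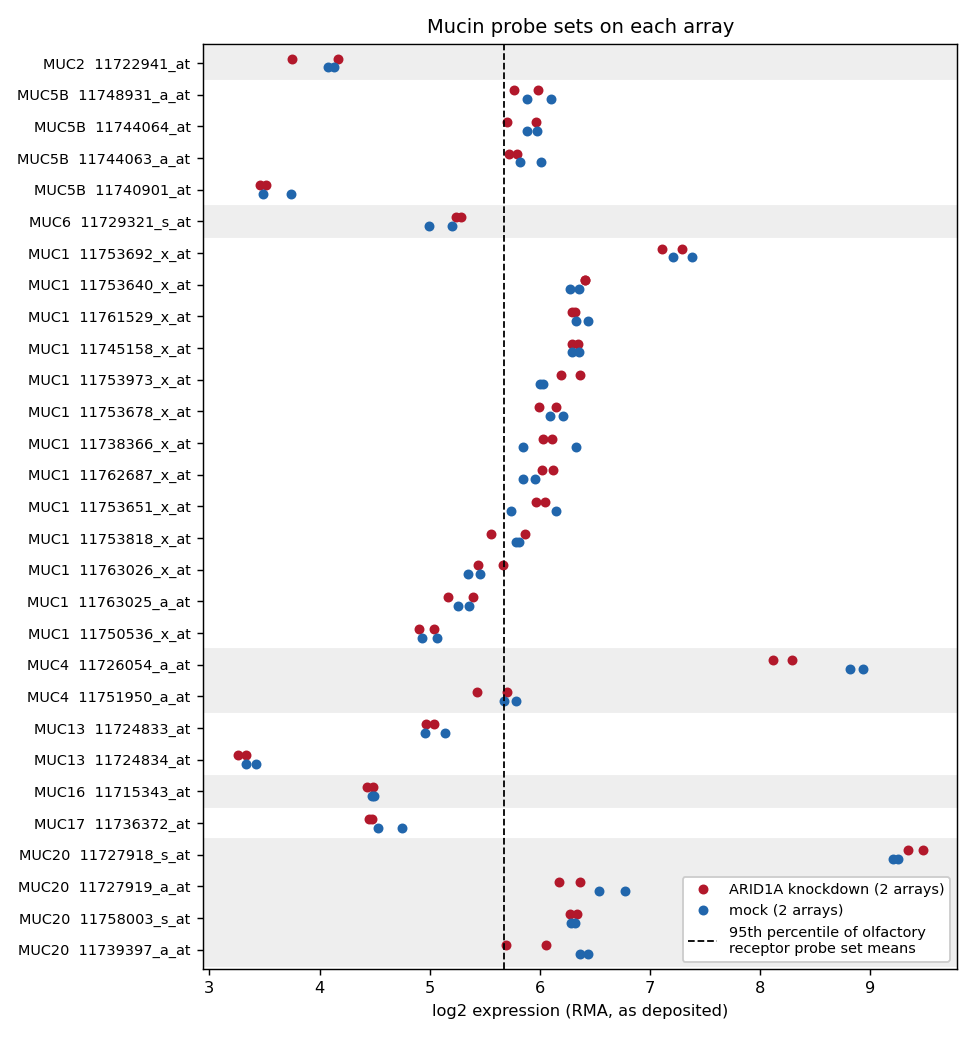
Log2 expression (horizontal axis, RMA values as deposited) of the 29 mucin probe sets on each array, with ARID1A knockdown arrays in red above mock arrays in blue in each row, and the dim limit of 5.67 as a dashed line. MUC20 (11727918_s_at) and MUC4 (11726054_a_at) gave the brightest signals, while MUC2, MUC6, MUC13, MUC16 and MUC17 lay left of the limit on all arrays.

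MUC4 encodes a very large membrane mucin whose extracellular part carries EGF-like domains and is known to bind the receptor kinase ERBB2. At probe set 11726054_a_at it had log2 levels of 8.12 and 8.29 in knockdown cells, against 8.93 and 8.82 in mock cells. The groups did not overlap, and the gap between them was wider than the spread within either. The means were 8.20 ± 0.120 in knockdown and 8.88 ± 0.0821 in mock cells (SD, n = 2 each), a log2 change of -0.67 (SE 0.0932) with a 95% confidence interval of -0.91 to -0.44. The knockdown level was thus 62.7% of the mock level, with an interval of 53.4% to 73.6%. The other probe set of MUC4, 11751950_a_at, sat at the dim limit, with 5.70 and 5.43 in knockdown cells, against 5.67 and 5.79 in mock cells. Those groups overlapped, with a change of -0.16 (limma adjusted p = 0.530). Whether MUC4 passed depended on the processing. Its adjusted p in limma was 0.0274 with arrays centred on their medians, 0.0430 under quantile normalization, 0.0172 without dim probe sets and 0.00136 with a variance prior that follows intensity. It was not under 0.05 in the other 7 settings. Of these, the fits with 1 array left out or with the replicate number as a block called 0 probe sets in all. They left 1 residual degree of freedom, so they cannot show whether MUC4 would pass. The change of MUC4 itself stayed between -0.76 and -0.59 in all 11 settings. By unadjusted p MUC4 ranked 163rd of 18132 genes. In bulk RNA, fewer cells with a transcript and less of it per cell cannot be told apart.

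The sequence before the RefSeq start of MUC4, the mucin with the largest difference, is shown beside that of MUC1, a mucin with signal above the dim limit and a median change of -0.02. Each window holds the 250 bases before the start (MUC4, chr3:195811930-195812179, minus strand; MUC1, chr1:155192916-155193165, minus strand; GRCh38.p14). Capitals mark matches on either strand to the GC box GGGCGG, the CACCC box, the AP-1 site TGACTCA and the TATA box TATAAA.
MUC4: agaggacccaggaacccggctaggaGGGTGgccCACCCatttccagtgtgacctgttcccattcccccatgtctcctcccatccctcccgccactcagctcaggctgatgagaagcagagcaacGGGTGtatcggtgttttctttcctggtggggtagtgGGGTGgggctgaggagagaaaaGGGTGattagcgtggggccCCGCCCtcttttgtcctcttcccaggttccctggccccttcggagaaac
MUC1: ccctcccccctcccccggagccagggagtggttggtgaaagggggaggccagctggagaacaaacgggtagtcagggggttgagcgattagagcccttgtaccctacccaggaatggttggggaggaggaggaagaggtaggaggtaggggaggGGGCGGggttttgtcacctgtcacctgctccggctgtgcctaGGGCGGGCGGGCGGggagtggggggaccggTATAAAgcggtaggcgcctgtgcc
The MUC4 window held 5 matches to CACCC and 1 to the GC box, and the MUC1 window 4 to the GC box, which overlap in part, 1 to TATAAA and 0 to CACCC. Neither held TGACTCA. Among 27305 promoters of the same length, 53.7% held CACCC at least 1 time, 42.3% the GC box, 11.1% TATAAA and 4.16% TGACTCA. How many held 5 matches was not counted. Of the 6 member genes with a promoter entry, 4 held CACCC, 3 the GC box, 2 TGACTCA and 1 TATAAA. Factors of the KLF family are known to bind the CACCC box. A match of letters is a description of the sequence and no evidence of binding.

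MUC20 encodes a small membrane mucin known to associate with the receptor kinase MET. It is the next protein-coding gene to MUC4 on chromosome 3 in RefSeq (GRCh38.p14). Its 4 probe sets fell into 2 kinds. The 2 ending in _a_at, whose probes are meant to match transcripts of 1 gene, were lower in the knockdown cells, while the 2 ending in _s_at, whose probes can match transcripts of other genes, were not. Probe set 11739397_a_at had 5.69 and 6.06 in knockdown cells, against 6.36 and 6.44 in mock cells, without overlap. Its change was -0.53 (95% confidence interval -0.85 to -0.20), with a limma adjusted p of 0.162, and 0.0456 with the intensity-dependent prior. Probe set 11727919_a_at had 6.36 and 6.18 in knockdown cells, against 6.54 and 6.77 in mock cells. These also did not overlap, at a change of -0.39 (-0.67 to -0.11, limma adjusted p = 0.203). The brightest MUC20 probe set, 11727918_s_at, had 9.35 and 9.48 in knockdown cells, against 9.21 and 9.25 in mock cells. Its change was 0.18 (-0.02 to 0.39, limma adjusted p = 0.351), opposite in sign. The fourth, 11758003_s_at, had 6.34 and 6.27 in knockdown cells, against 6.32 and 6.28 in mock cells, a change of 0.00095. The direction of MUC20 therefore differed between its probe sets, and the brightest was not gene-specific by its suffix. The difference between the probe sets was not tested. Without knockdown replicate 1 the change at 11739397_a_at was -0.34.

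**Figure D2:**
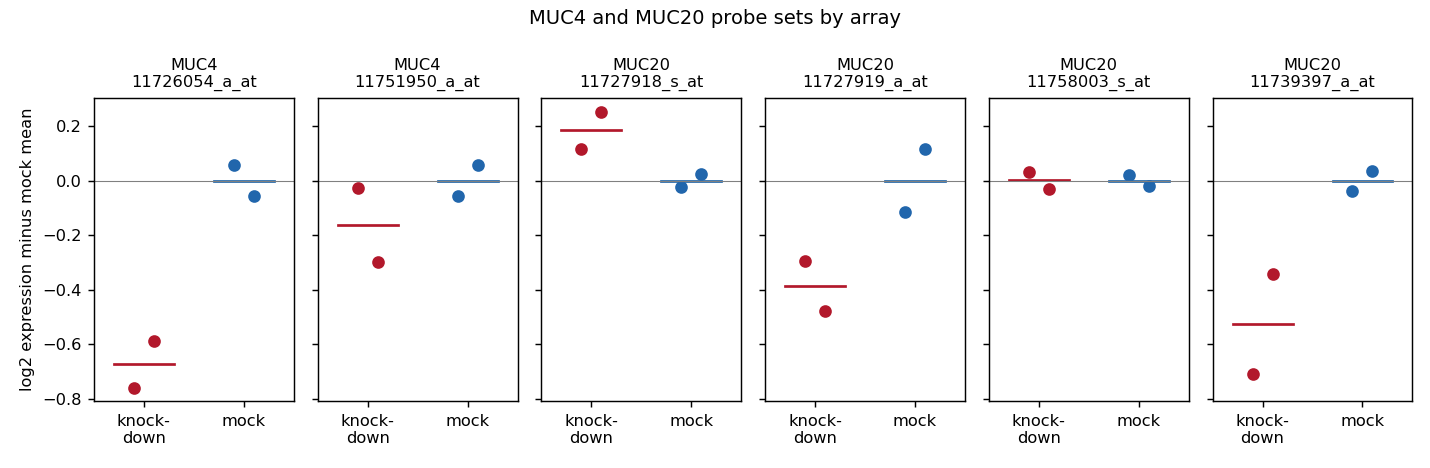
Log2 expression of each MUC4 and MUC20 probe set minus its mean over the mock arrays (vertical axis), with the 2 ARID1A knockdown arrays in red on the left and the 2 mock arrays in blue on the right, and group means as bars. MUC4 11726054_a_at and the 2 _a_at probe sets of MUC20 were lower in both knockdown arrays, while the 2 _s_at probe sets of MUC20 had changes of 0.18 and 0.00095.

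MUC1, an epithelial membrane mucin that is cleaved into a shed ectodomain and a signalling tail, was covered by 13 probe sets. Of these 12 end in _x_at, and as they share 1 gene they are not separate measurements of it. Averaged over the 13, its level was 6.004 and 6.03 in knockdown cells, against 5.94 and 6.05 in mock cells. Changes ran from -0.09 to 0.26 with a median of -0.02, 5 of them positive and 8 negative. The groups overlapped at 9 of the 13. The brightest, 11753692_x_at, had 7.29 and 7.11 in knockdown cells, against 7.21 and 7.38 in mock cells (change -0.09, 95% confidence interval -0.34 to 0.16). One probe set, 11753973_x_at, had an unadjusted p under 0.05, with 6.36 and 6.19 in knockdown cells, against 6.03 and 6.004 in mock cells. Its change was 0.26 and its adjusted p in limma was 0.245. Groups were also apart at 11753640_x_at, with 6.41 and 6.41 in knockdown cells, against 6.35 and 6.27 in mock cells. The same held for 11762687_x_at, with 6.02 and 6.12 in knockdown cells, against 5.96 and 5.85 in mock cells. In the other direction, 11761529_x_at had 6.32 and 6.29 in knockdown cells, against 6.33 and 6.43 in mock cells. These 3 had changes of 0.10, 0.17 and -0.08 and adjusted p-values of 0.568, 0.392 and 0.686 in limma. Of the overlapping probe sets above the dim limit, 11745158_x_at had a change of -0.0022, 11753678_x_at of -0.08, 11738366_x_at of -0.02, 11753651_x_at of 0.07 and 11753818_x_at of -0.09. Their knockdown means were 6.32, 6.07, 6.07, 6.01 and 5.71, and their mock means 6.32, 6.15, 6.09, 5.94 and 5.80. The mock arrays lay farthest apart at 11738366_x_at, at 5.85 and 6.33, on either side of the knockdown arrays. Below the limit, 11763026_x_at averaged 5.55 in knockdown and 5.40 in mock cells, 11763025_a_at 5.28 and 5.31, and 11750536_x_at 4.97 and 4.998. Over all MUC1 probe sets the confidence intervals lay between -0.42 and 0.48, and the change of -0.67 at MUC4 11726054_a_at lay outside them. These intervals hold for the signal of the probe sets. Probes of _x_at sets may match other sequences, and the MUC1 probe set without that suffix, 11763025_a_at, was below the dim limit. They therefore do not bound a change in MUC1 mRNA itself.

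The remaining membrane mucins were all below the dim limit on every array. MUC13, a mucin of the gastric and intestinal surface, had 4.97 and 5.04 in knockdown cells, against 5.14 and 4.96 in mock cells at the brighter of its 2 probe sets, 11724833_at. The groups overlapped there, as they did at 11724834_at, which had 3.33 and 3.25 in knockdown and 3.42 and 3.33 in mock cells, with changes of -0.05 and -0.08 (limma adjusted p = 0.858 and 0.658). MUC16, the carrier of the tumour antigen CA125, had 4.49 and 4.43 in knockdown cells, against 4.47 and 4.49 in mock cells, a change of -0.02. MUC17, a mucin of the intestinal brush border, had 4.45 and 4.47 in knockdown cells, against 4.53 and 4.75 in mock cells. Its groups did not overlap, with a change of -0.18 (limma adjusted p = 0.419). At such signals a change in mRNA may be understated or not detectable.

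Among the gel-forming mucins, whose genes lie in a cluster on chromosome 11, MUC5B alone had probe sets above the dim limit, and these were just above it. MUC5B is the main mucin of airway submucosal glands and saliva. Its brightest probe set, 11748931_a_at, had 5.98 and 5.76 in knockdown cells, against 5.89 and 6.10 in mock cells. All 4 of its changes were negative, from -0.16 to -0.09, but the groups overlapped at 3 of the 4, and the smallest adjusted p in limma was 0.476. Single arrays moved them: on leaving out knockdown replicate 2, 11744064_at turned to 0.04 and 11748931_a_at went to -0.01, as it did on leaving out mock replicate 2. On leaving out mock replicate 1, 11740901_at went to -0.0033, and on leaving out mock replicate 2, 11744063_a_at went to -0.06. The groups were apart at 11744063_a_at, with 5.80 and 5.72 in knockdown cells, against 5.82 and 6.02 in mock cells. The dimmest MUC5B probe set, 11740901_at, had 3.51 and 3.46 in knockdown and 3.74 and 3.49 in mock cells. The remaining one, 11744064_at, had 5.97 and 5.70 in knockdown and 5.89 and 5.97 in mock cells. MUC2, the mucin of intestinal goblet cells, had 3.75 and 4.17 in knockdown cells, against 4.13 and 4.08 in mock cells, with a change of -0.15 (limma adjusted p = 0.680). The knockdown arrays enclosed the mock arrays there. MUC6, the mucin of gastric glands, had 5.28 and 5.24 in knockdown cells, against 5.20 and 4.9965 in mock cells at its one probe set, 11729321_s_at. It was the gel-forming mucin with a positive change, 0.16 (95% confidence interval -0.07 to 0.40, limma adjusted p = 0.455).

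Set side by side, the gel-forming mucins had a median log2 change of -0.12 over 6 probe sets of 3 genes, 1 positive and 5 negative. The membrane mucins had a median of -0.03 over 23 probe sets of 6 genes, 7 positive and 16 negative. The median over all probe sets was -0.0025, and 50.9% of all probe sets had a negative and 49.1% a positive change. Mean levels of the gel-forming class were 5.05 and 5.01 in knockdown cells, against 5.11 and 5.11 in mock cells, and those of the membrane class 5.95 and 5.97 in knockdown and 5.99 and 6.07 in mock cells. The gap between the medians depended on MUC1, which gave 13 of the 23 membrane probe sets. In the gel-forming class MUC5B gave 4 of the 6. Without MUC1 the membrane median was -0.12 over 10 probe sets, and without probe sets ending in _s_at or _x_at it was -0.16 over 9. Only 1 gel-forming gene and 3 membrane genes, MUC1, MUC4 and MUC20, had a probe set above the dim limit. Single arrays moved both medians. For the gel-forming class, leaving out knockdown replicates 1 and 2 in turn gave -0.174 and -0.0552, and leaving out mock replicate 2 gave -0.0548. For the membrane class, leaving out knockdown replicate 2 gave -0.0042, and leaving out mock replicates 1 and 2 in turn gave -0.0947 and -0.0140.

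**Figure D3:**
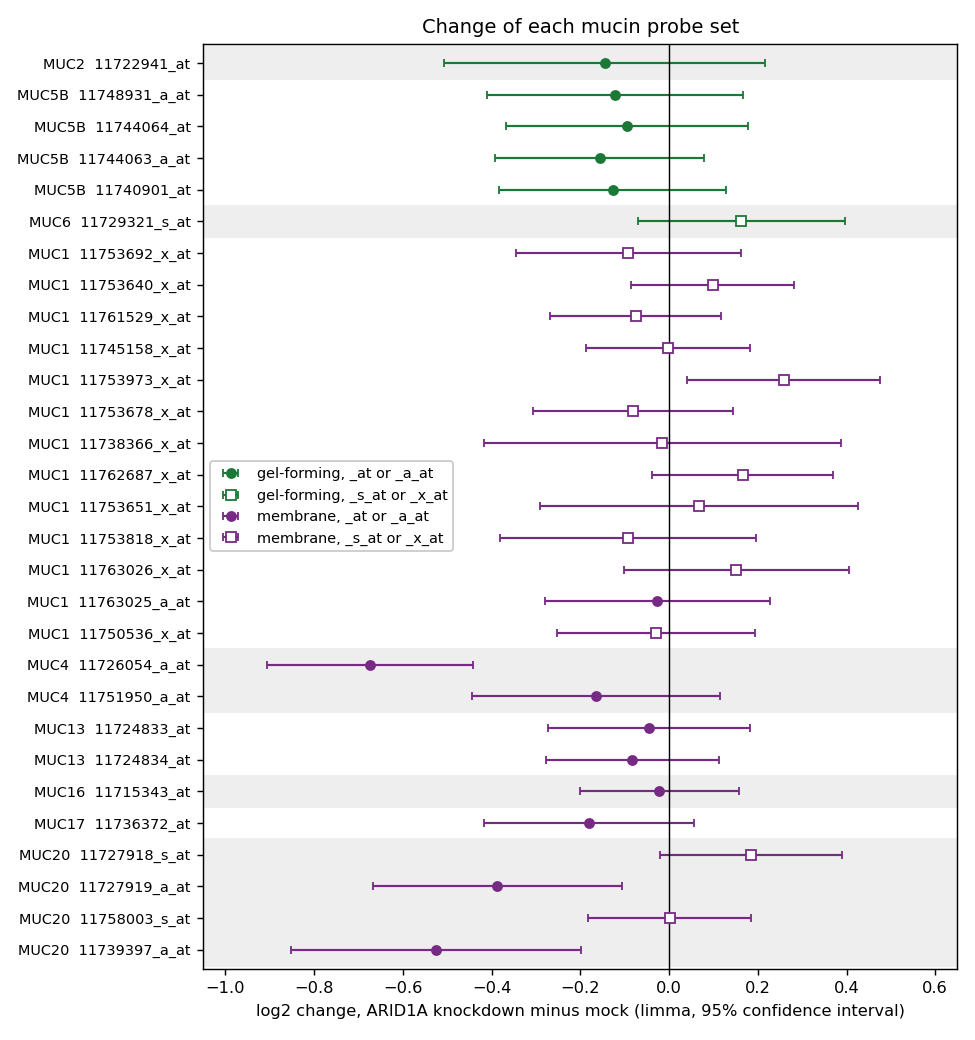
Log2 change of each mucin probe set, ARID1A knockdown minus mock (horizontal axis), with its 95% confidence interval from limma; green marks gel-forming and purple membrane mucins, and open squares mark probe sets ending in _s_at or _x_at. The intervals of MUC4 11726054_a_at, of the 2 _a_at probe sets of MUC20 and of MUC1 11753973_x_at did not include 0, and none of the 29 passed at an adjusted p under 0.05.

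Over the 4 arrays, the genes whose centred log2 values were nearest to those of MUC4 were BABAM2, STX6 and WWTR1, at Euclidean distances of 0.0406, 0.0509 and 0.0628 among 18131 other genes. WWTR1 encodes TAZ, a transcriptional coactivator of the Hippo pathway, and STX6 a syntaxin of the trans-Golgi network. Their changes were -0.67 for BABAM2, -0.65 for STX6 and -0.72 for WWTR1, and none passed (limma adjusted p from 0.0525 to 0.0643). With 4 arrays in 2 groups, likeness says little beyond an equal change.

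The genes around the mucins were read from 6 lists, with 1 probe set per gene, the brightest. Of 127 genes measured 1 passed the test, where 0.403% of all genes passed (0.215% lower and 0.188% higher). It was B4GALT4, a galactosyltransferase that extends glycan chains. B4GALT4 had 9.09 and 9.24 in knockdown cells, against 8.43 and 8.36 in mock cells, without overlap. It was 1.71-fold higher (log2 change 0.77, SE 0.0842, limma adjusted p = 0.0499), and its other probe set, 11748913_a_at, had a change of 0.80 (0.0643). The call ended with any 1 array left out, but 0 probe sets of the whole array passed in those fits, which leave 1 residual degree of freedom. The probes of the passing probe set may match other genes by the suffix _s_at. GCNT3, which makes the branched core structures of mucin O-glycans, had 6.69 and 6.48 in knockdown cells, against 5.85 and 5.9993 in mock cells. Its change was 0.66 (limma adjusted p = 0.0801). Over the whole list of enzymes and transporters for cores, extension and capping, 34 genes were measured, 1 passed and the median change was -0.01, with a sign that turned to 0.00645 on leaving out knockdown replicate 2 and 0.0102 on leaving out mock replicate 2. In this list 6 genes were higher at an unadjusted p under 0.05 and 3 were lower, where 9.76% of all genes were higher and 7.25% lower. Of 15 GalNAc transferases, which attach the first sugar, 0 passed and 0 had an unadjusted p under 0.05 in limma at their brightest probe set, against 17.0% of all genes. Their median was 0.03. It became 0.0616 on leaving out knockdown replicate 2, 0.0609 on leaving out mock replicate 2 and 0.00013 with the mean of all probe sets of a gene. The 3 with the smallest p were GALNT18 at 0.20, GALNT12 at 0.22 and GALNT1 at 0.17. GALNT1 had larger changes at 11743291_a_at (0.29, unadjusted p = 0.0140) and 11743290_at (0.28, unadjusted p = 0.0368), neither past the adjusted threshold in limma. Its dimmest probe set, below the dim limit, had a negative change of -0.16.

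Sheddases, ligands and kinase partners of membrane mucins had 12 of 14 changes positive and a median of 0.07. Over all genes the median was -0.0043, with 48.6% of changes positive and 51.4% negative. All 14 had signal above the dim limit, while the values over all genes include dim ones. Over all probe sets above the limit the median was 0.0124. The list's median was 0.21 without probe sets ending in _s_at or _x_at and 0.110 with the mean of all probe sets of a gene. It was 0.108 on leaving out knockdown replicate 1 and 0.122 on leaving out mock replicate 2. In limma 0 passed, against 0.403% of all genes. At an unadjusted p under 0.05, 6 were higher and 0 lower, against 9.76% and 7.25% of all genes. ERBB3, a receptor kinase and partner of ERBB2, had 9.09 and 9.09 in knockdown cells, against 8.51 and 8.46 in mock cells (change 0.60, limma adjusted p = 0.0525) at an _x_at probe set. Its other probe sets had changes of 0.29 and, opposite in sign, -0.23. ADAM17, which sheds the MUC1 ectodomain, had 10.18 and 10.14 in knockdown and 9.77 and 9.68 in mock cells (change 0.44, limma adjusted p = 0.0935). Its other probe sets had changes of 0.35 and, below the dim limit, 0.0011 and -0.03. LGALS3, galectin-3, a lectin that binds mucin glycans, had 12.48 and 12.53 in knockdown and 12.11 and 12.07 in mock cells (change 0.42, limma adjusted p = 0.0942). ERBB2, the MUC4 partner and named after its values were seen, had 11.40 and 11.35 in knockdown and 11.27 and 11.37 in mock cells, a change of 0.06 whose groups overlapped.

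Of 27 measured genes listed as secretory partners of mucus, not all of them for secreted proteins, 10 had signal above the dim limit. In limma 0 passed. An unadjusted p under 0.05 was found for 2 higher genes (9.76% of all genes) and 1 lower gene (7.25% of all genes). The median was -0.05, and its sign rested on single arrays: it became 0.0050 on leaving out knockdown replicate 2, 0.0037 on leaving out mock replicate 2, -0.113 on leaving out knockdown replicate 1 and -0.0952 on leaving out mock replicate 1. AGR2, a disulphide isomerase needed for mucin folding, had 10.96 and 10.86 in knockdown cells, against 10.70 and 10.73 in mock cells (change 0.20). Its other probe sets had changes of 0.36, 0.23 and, below the dim limit, -0.06. ZG16B had a change of 0.20 and KLK10 of -0.21, each at an adjusted p between 0.272 and 0.290 in limma. The trefoil peptides TFF1, TFF2 and TFF3 were below the limit, at means of 4.38, 4.72 and 3.49 in knockdown and 4.53, 4.78 and 3.53 in mock cells. Among 26 transcription factors known to act on mucin genes, 0 passed in limma, and an unadjusted p under 0.05 was found for 8 higher and 2 lower genes, where 9.76% of all genes were higher and 7.25% lower. The median was 0.0045, between -0.0225 and 0.0420 with single arrays left out, so it had no settled sign. KLF4, a factor of surface epithelium, had 10.97 and 11.05 in knockdown cells, against 10.54 and 10.48 in mock cells. Its change was 0.50 (limma adjusted p = 0.0753), and 0.62 at its other probe set. The next smallest p belonged to HNF4G at 0.52 (limma adjusted p = 0.111) and SOX2 at 0.30 (0.198). Their dimmer probe sets did not share these values: HNF4G had -0.05 at its other one, below the dim limit, and SOX2 had 0.12 and, below the limit, -0.05. SPDEF, a driver of goblet cells named after its values were seen, had a change of -0.13. Of 11 other mucins and mucin-like genes 2 had signal above the limit, 0 passed in limma and 1 had an unadjusted p under 0.05, against 17.0% of all genes. That was MUC7, a salivary mucin with signal below the limit, at 3.53 and 3.55 in knockdown cells, against 3.28 and 3.32 in mock cells (change 0.24). MUC21 had a change of -0.19 at its brightest probe set and, opposite in sign, 0.24 and 0.02 at its other probe sets. LYPD8 had -0.12. The list's median was -0.05, and became -0.03 on leaving out knockdown replicate 1 or mock replicate 2.

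**Figure D4:**
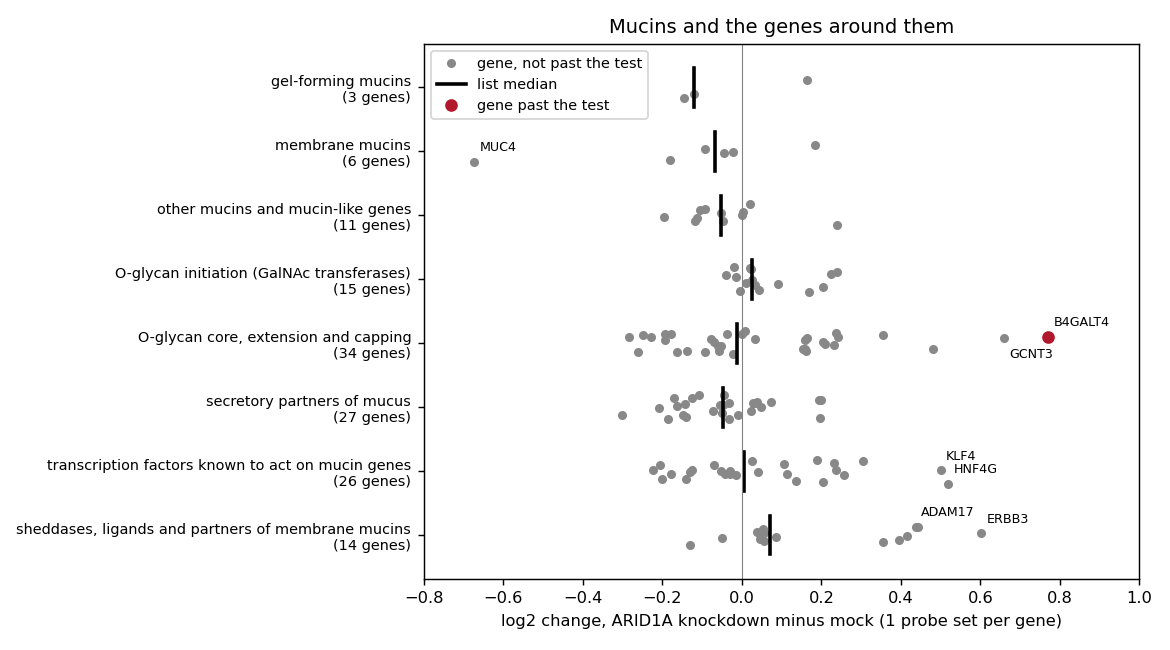
Log2 change, ARID1A knockdown minus mock (horizontal axis), of each gene in the mucin classes and in 6 lists around them, 1 probe set per gene, with list medians as black bars and B4GALT4, the gene past the test, in red. MUC4 lies at -0.67 to the left of all other genes shown, and GCNT3, KLF4, HNF4G, ERBB3 and ADAM17 lie to the right without passing.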

How the data were processed

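Total RNA was measured on 4 arrays. The submitters' processing notes name RMA and Partek without versions; the values that the authors deposited are on a log2 scale, 1 per probe set. RMA sets arrays to a common distribution, so a change in total mRNA cannot be seen, and dim changes are understated. Of 49372 probe sets 79 controls were left out. Gene names came from the platform annotation, and the 9 measured member symbols matched RefSeq through their Entrez identifiers. Knockdown and mock were compared by limma 3.58.1 (R 4.3.3) over all 4 arrays, two-sided, with Benjamini-Hochberg adjustment over 49293 probe sets and a threshold of 0.05. The fit had 2 residual and 3.62 prior degrees of freedom; p-values and 95% confidence intervals are from it unless another setting is named. It was tested on simulated data. For lists, each of 18132 genes was represented by its brightest probe set. For MUC4 the 3 genes nearest by distance were also named. Named were all members, ARID1A, and of each list the genes past the test or else the 3 with the smallest p; GCNT3, ERBB2, SPDEF and the trefoil genes were named after their values were seen. Members and lists were chosen with earlier results of these data known. Alternatives were median centring, quantile normalization, a filter on dim probe sets, leaving out _s_at and _x_at probe sets, the replicate number as a block, an intensity trend in eBayes and leaving out each array. Promoter sequences are RefSeq's (GRCh38.p14), with entries for 6 of the 10 genes.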

Additional observations from a re-analysis of the deposited data

How the results depend on the processing

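Of the 11 alternative settings, each mucin probe set could be computed in 9 to 11, since the filters removed some; the blocks and the intensity-dependent prior leave the change itself as it is and could turn no sign. Over the settings run, 18 of the 29 kept the sign of their change and 11 did not, those 11 with no call in any setting. The number of mucin probe sets past the test, 0 in the reported fit, was 1 with arrays centred on their medians, 1 under quantile normalization and 1 without dim probe sets, each time MUC4, and 2 with an intensity-dependent prior, which added MUC20. Over all probe sets 156 passed (74 higher, 82 lower), 671 after centring (403 higher, 268 lower), 297 under quantile normalization, 1926 without dim probe sets, 3209 with the intensity-dependent prior and 23 without _s_at and _x_at probe sets. Of the listed genes 1 passed, and 4, 2, 10, 16 and 0 in those same settings. Of the ARID1A probe sets 4 passed, 1 without dim probe sets and 2 without shared ones, where those that no longer counted had been removed. The 4 ARID1A and the B4GALT4 calls ended with any 1 array left out and under either block. With 1 array left out, 0 passed in any of these counts, as 1 residual degree of freedom remained; the gel-forming median then ran from -0.174 to -0.0548 and the membrane median from -0.0947 to -0.0042. The membrane median was -0.164 without shared probe sets. With the replicate number as a block 0 probe sets passed in all, among ARID1A, the mucins and the listed genes alike. The block fits also leave 1 residual degree of freedom, so their loss of calls cannot show whether the arrays are paired. The labels do not say that replicate numbers pair the arrays, and the deviations of same-numbered arrays from their group means correlated at -0.202; with crossed numbers as a replicate block, a setting chosen after seeing the data, the counts were also 0. For other changes of value the cause was not tested. An array gives no read depth, and signal below the dim limit bounds what could be seen for MUC2, MUC6, MUC13, MUC16 and MUC17. Signal near the limit does so for the brighter MUC5B probe sets, for MUC4 11751950_a_at and for several MUC1 probe sets.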
